A study of Mus musculus with 5 samples.

Results

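The genes described here are the glandular kallikreins of the mouse: Klk1, the tissue kallikrein, and the Klk1b genes Klk1b27, Klk1b21, Klk1b22, Klk1b24, Klk1b26, Klk1b16, Klk1b8, Klk1b11 and Klk1b5. These 10 genes of 51912 listed were taken by symbol. The family was chosen by the expression values of Klk1b27, which had been seen to differ between the groups of this study, so the comparison of the groups was used to choose it and the group values of its genes are given as a description, with no p-value; where calls are counted, the count is set beside that of all genes and nothing is read from it.

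Total RNA of the mouse dorsolateral prostate, written DLP in the labels, was sequenced from 5 male mice aged 3 months. The 3 control mice had the genotype Ghrflox/flox, in which both alleles of the growth hormone receptor gene Ghr are flanked by recombinase sites, and the 2 mice labelled Ghr deletion, whose libraries are called deletion-labelled here, were Ghrflox/flox;ROSA26Cre-ERT2+/0. All 5 received tamoxifen at 250 mg/kg on each of 5 days, and the DLP was collected 1 month after the last injection. The ROSA26 locus is active in most tissues, so the Cre-ERT2 recombinase is not limited to the prostate, and an effect of Cre itself cannot be told apart from an effect of the deletion because the controls carry no Cre.

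The libraries held 19517831 to 41553558 expected counts each, and abundance is given as CPM, the share of a library's counts, on a library size scaled by the trimmed mean of M-values (TMM). Ghr itself, counted over the whole gene, was 10.1 to 13.2 CPM in the controls against 21.5 and 10.2 CPM in the deletion-labelled libraries, so the counts do not show the deletion and every direction below is that of the labels. The labelled tissue was also checked against its markers. Genes of the seminal vesicle, the gland beside the prostate, summed to 105000 to 452000 CPM, but some genes of this list differed far more. Svs1 had 32900, 22500 and 58.6 CPM in controls against 0.0454 and 7.90 CPM, while Svs2 had 68600, 47300 and 141000 against 67700 and 119000 CPM. For 6 of the 8 genes each control was above both deletion-labelled libraries, beside 12.5% of all tested genes. The median log2 fold change of the 8 was -7.48. Genes of distal luminal prostate cells summed to 46.4, 2270 and 5.09 CPM in control replicates 1 to 3 and to 1.66 and 179 CPM in Ghr deletion replicates 1 and 2. Msmb, a secretory protein of these cells, was at 0 in Ghr deletion replicate 1.

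Glandular kallikreins are secreted serine proteases that mature from inactive precursors and cut at a small number of sites in other secreted proteins. Klk1 releases kinins, short peptides that dilate vessels, from kininogens, whereas most Klk1b proteins are poor at this and are known instead for processing growth factor and hormone precursors. In the mouse they are best known from the submandibular gland, where many of them depend on androgens. Klk1b22 and Klk1b26 are known as binding proteins of epidermal growth factor, Klk1b26 also cuts prorenin, Klk1b16 is also known as gamma-renin, and Klk1b21, Klk1b24 and Klk1b27 are known from the Leydig cells of the testis.

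All 10 genes lie on the forward strand of chromosome 7 in GENCODE release M21 on GRCm38, in a cluster of 14 Klk1 and Klk1b genes that runs from 43950664 to 44229618 and spans 279 kb. Klk1 (ENSMUSG00000063903) lies at one end, at 44225360 to 44229618. Klk1b27 (ENSMUSG00000063177) lies at 44052290 to 44056712, Klk1b21 at 44102328 to 44106583 and Klk1b24 at 44188236 to 44192455. Each of the 10 has 5 exons.

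In parts of their sequence the paralogs are so close that reads have to be told apart by few bases. The stretch around the catalytic serine is such a part and does not stand for the whole transcript. It is printed for the 4 genes that held most counts and for Klk1b5, the nearest relative of Klk1. It is 48 coding bases long, 24 at the end of exon 4 and 24 at the start of exon 5, and capitals mark bases that differ from Klk1. With the intron between these exons it covers chr7:44229024-44229437 for Klk1, chr7:44191857-44192274 for Klk1b24, chr7:44105985-44106402 for Klk1b21, chr7:44056118-44056534 for Klk1b27 and chr7:44220104-44220522 for Klk1b5 (GRCm38, forward strand, GENCODE transcripts).
Klk1: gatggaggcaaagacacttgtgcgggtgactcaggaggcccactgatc
Klk1b24: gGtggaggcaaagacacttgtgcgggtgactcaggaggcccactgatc
Klk1b21: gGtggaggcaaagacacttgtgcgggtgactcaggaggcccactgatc
Klk1b27: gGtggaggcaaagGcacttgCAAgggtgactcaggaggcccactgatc
Klk1b5: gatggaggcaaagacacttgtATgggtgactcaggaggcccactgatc
Klk1b24 and Klk1b21 are identical here and differ from Klk1 at 1 base. Klk1b27 differs from Klk1 at 5 bases and Klk1b5 at 2. In the other 5 genes the number was 3 in Klk1b26, 4 in Klk1b22, 5 in Klk1b11, 7 in Klk1b16 and 9 in Klk1b8.

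Over the whole coding sequence, the 10 genes were 81.4% to 95.1% identical in pairs. Klk1 and Klk1b5 were the nearest pair (95.1%). Klk1b21, Klk1b24 and Klk1b27 were 92.6% to 93.5% identical among themselves and 82.7% to 90.5% identical to the other 11 genes of the cluster. Of all windows of 50 bases in the transcript, 71.6% occurred in no other gene of the cluster for Klk1, 67.9% for Klk1b24, 70.9% for Klk1b21 and 85.7% for Klk1b27, and with windows of 100 bases these shares were 93.9%, 97.4%, 96.5% and 98.2%. The longest run of identical bases was 145 between Klk1 and Klk1b5 and 117 between Klk1b21 and Klk1b24. The read length is not given in the sources used here, so which of these shares applies to the reads is unknown.

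**Figure D1:**
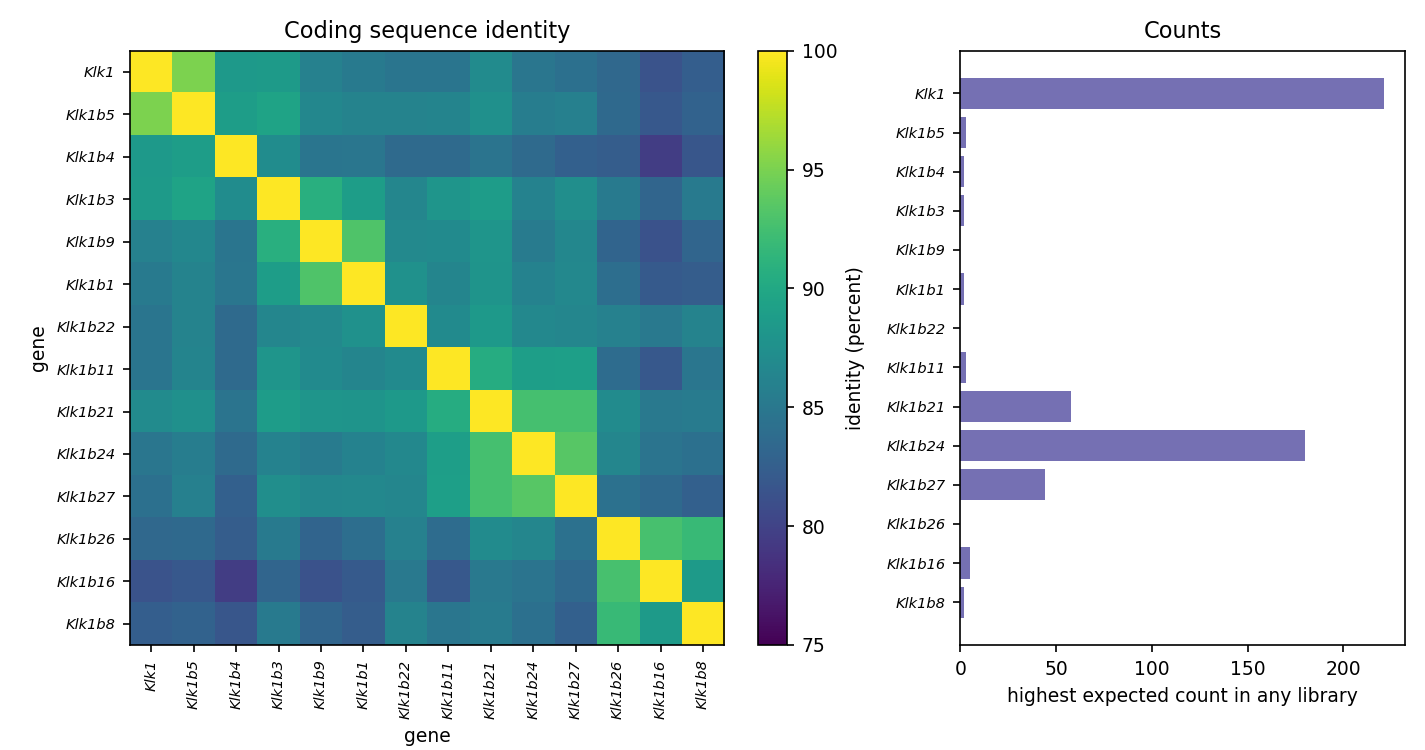
Left, percent identity of the coding sequences of the 14 Klk1 and Klk1b genes in pairs (both axes: gene, color: percent). Right, the highest expected count each gene reached in any library. Klk1b21, Klk1b24 and Klk1b27 form a block of 92.6% to 93.5%, and Klk1 and Klk1b5 share 95.1% although Klk1 reached 220.97 counts and Klk1b5 reached 3.03.

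The deposited counts are estimates, and a read that could come from more than 1 paralog may be divided among them. Of the 50 values of the 10 genes over 5 libraries, 48 were whole numbers within 0.001. The other 2 were Klk1 (220.97) and Klk1b5 (3.03) in Ghr deletion replicate 1, the pair with the highest identity. Many of the whole values were 0, among them every value of Klk1b22 and Klk1b26, and a 0 is whole in any case. A read given wholly to the wrong paralog would not show as a fraction, so counts of single paralogs remain uncertain.

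The promoters of Klk1b21, Klk1b24 and Klk1b27, the 3 Klk1b genes with most counts, share a block of sequence. In the RefSeq windows from 250 bases before to 50 bases after each gene's start (GRCm38.p6, all 10 genes matched), 89 bases are identical in these 3 genes and occur in 3 of 32851 windows, those of these 3 genes. The block is printed once, with the best ungapped match in Klk1b11, where capitals mark the 13 bases that differ. It lies on the forward strand at chr7:44052153-44052241 for Klk1b27 (bases -137 to -49 from the start), at chr7:44188086-44188174 for Klk1b24 (-150 to -62), at chr7:44102177-44102265 for Klk1b21 (-115 to -27), and its match in Klk1b11 is at chr7:43995717-43995805.
Klk1b21, Klk1b24 and Klk1b27: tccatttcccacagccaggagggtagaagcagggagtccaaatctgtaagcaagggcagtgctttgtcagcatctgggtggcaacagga
Klk1b11: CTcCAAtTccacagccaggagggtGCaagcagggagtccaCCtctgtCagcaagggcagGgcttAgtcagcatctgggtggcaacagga
In the other cluster genes the best ungapped match had 13 to 57 mismatches, the most in Klk1. Gaps were not allowed, so an inserted base raises the number, as in Klk1b3 (34), where the end of the block is present but shifted by 1 base. The block was found after the counts had been seen, and the coding sequences of the genes that share it are also 92.6% to 93.5% identical. A search of both strands found TTTAAA, the letters of a TATA-like box, in the windows of 9 of the 10 genes (all but Klk1) and in 13.2% of all windows. AGAACA, the core hexamer of the androgen response element, was in 1 of the 10 windows (Klk1b24) and in 19% of all windows, and the full element, AGAACA and TGTTCT with any 3 bases between them, was in none of the 10 and in 3 windows overall.

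The glandular kallikreins were scarce in all 5 libraries, and most of what was counted came from 1 mouse. Over the 5 libraries the 10 genes held 665 expected counts, and 77.0% of these were in Ghr deletion replicate 1. Only 4 genes had more than 5 counts in any library: Klk1b24 held 43.0% of the 665, Klk1 34.6%, Klk1b21 10.1% and Klk1b27 9.32%. Klk1b22 and Klk1b26 were at 0 in every library. In bulk tissue, fewer cells of a type and less RNA per cell cannot be told apart.

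Klk1 had 3, 2 and 4 counts in control replicates 1 to 3, 221 in Ghr deletion replicate 1 and 0 in Ghr deletion replicate 2. As CPM these were 0.185, 0.103, 0.0882, 5.01 and 0. The deletion-labelled libraries therefore held both the highest and the lowest value, and the groups overlapped. Ghr deletion replicate 1 stood 45.1-fold above the summed controls (95% interval 23.3 to 100). It was at least 66.2-fold above Ghr deletion replicate 2, taking the floor of 3 counts there. All such intervals here are exact, rest on read counts and cover counting error alone, not the spread between mice.

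**Figure D2:**
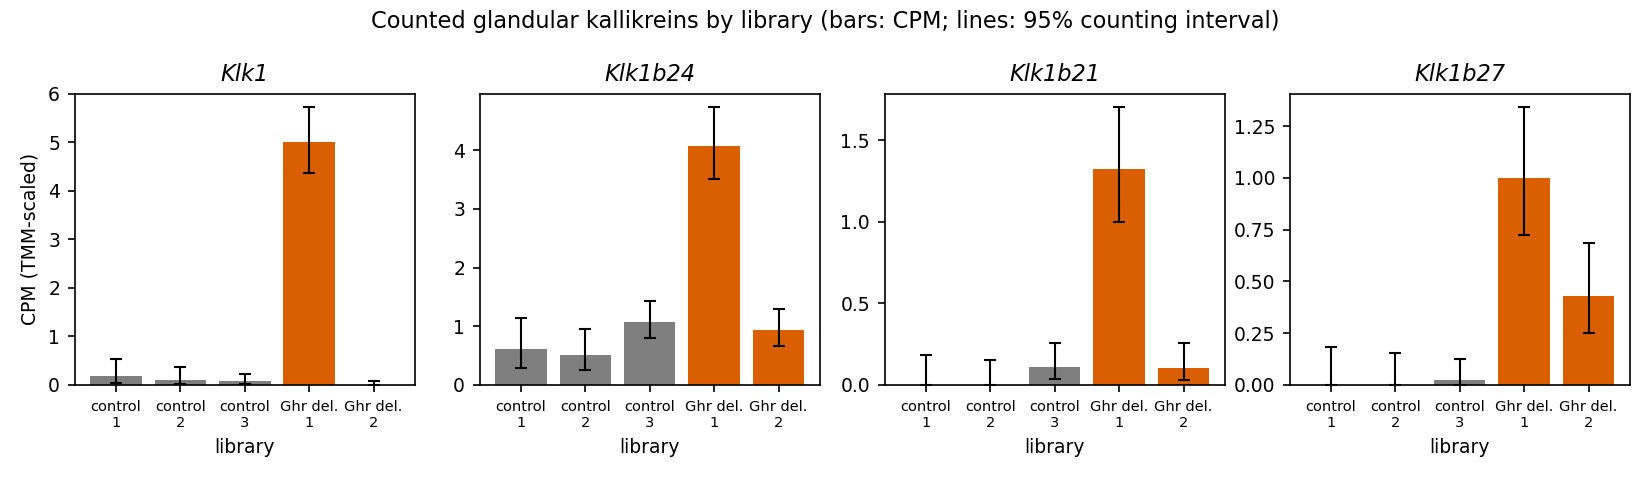
CPM of Klk1, Klk1b24, Klk1b21 and Klk1b27 (y axes, each panel with its own scale from 0) in each library (x axes), gray for controls and orange for deletion-labelled libraries; bars are single libraries and lines are 95% exact Poisson intervals (for a count of 0, up to the floor of 3 counts). Ghr deletion replicate 1 is highest in every panel, at 5.01, 4.08, 1.32 and 0.998 CPM, and Ghr deletion replicate 2 is on this scale above all controls only for Klk1b27, at 0.429 CPM.

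Klk1b24 was the only one of the 10 with counts in all 5 libraries. It had 10, 10 and 49 counts in control replicates 1 to 3 against 180 and 37 in Ghr deletion replicates 1 and 2, or 0.617, 0.514, 1.08, 4.08 and 0.934 CPM. Ghr deletion replicate 1 was 4.79-fold above the summed controls (95% interval 3.61 to 6.42), while Ghr deletion replicate 2 was at 1.10-fold (0.715 to 1.66), a difference within counting error. Ordered by CPM, the libraries ran from control replicate 2 through control replicate 1, Ghr deletion replicate 2 and control replicate 3 to Ghr deletion replicate 1, and the intervals of neighbors overlapped except for the last step. In TPM, a unit corrected for length and not scaled by TMM, the values were 0.37, 0.14, 0.96, 7.03 and 1.18. Ghr deletion replicate 2 thus lay above control replicate 3 on that scale and below it on the TMM scale.

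Klk1b21 had no counts in control replicates 1 and 2, 5 in control replicate 3, and 58 and 4 with the deletion label. These were 0, 0, 0.110, 1.32 and 0.101 CPM. Ghr deletion replicate 2 and control replicate 3 did not differ beyond counting error, and Ghr deletion replicate 1 was 13.0-fold above Ghr deletion replicate 2 (95% interval 4.83 to 49.4). As for Klk1b24, these 2 libraries changed places in TPM, with 0.10 in control replicate 3 and 0.13 in Ghr deletion replicate 2.

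Klk1b27, the gene behind the choice of this family, was the only one of these 4 for which both deletion-labelled libraries lay above every control on the TMM scale. In TPM this also held for Klk1b24 and Klk1b21, but that scale raised most genes in these libraries. On log2(TPM + 1) the median log2 fold change of all tested genes was 0.87. The share of all genes without overlap was not counted in TPM, so nothing is read from this. Klk1b27 had 0, 0 and 1 count in controls, 44 in Ghr deletion replicate 1 and 17 in Ghr deletion replicate 2, or 0, 0, 0.0221, 0.998 and 0.429 CPM. The floor of 3 counts was 0.185 and 0.154 CPM in the control libraries at 0. Against the summed controls, Ghr deletion replicate 1 was 80.9-fold higher (95% interval 13.8 to 3270) and Ghr deletion replicate 2 was 34.8-fold higher (5.45 to 1450), and the width of these intervals comes from the single control count. The difference between the 2 deletion-labelled libraries was the smallest of the 4 genes, at 2.33-fold (1.3 to 4.34).

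The other 6 genes, Klk1b5, Klk1b8, Klk1b11, Klk1b16, Klk1b22 and Klk1b26, held 20.03 counts together and no more than 5 in any library. Klk1b16 had 0, 0, 1, 5 and 1 counts in library order, Klk1b5 had 1, 1, 0, 3.03 and 2, Klk1b8 had 0, 0, 2, 1 and 0, and Klk1b11 had 3 counts in Ghr deletion replicate 2 alone. At this depth none of these could be ranked between libraries. For Klk1b22 and Klk1b26 the floor of 3 counts allows up to 0.0662 to 0.185 CPM, depending on the library.

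Of the 10 genes, 2 passed the filter on low counts, Klk1b24 and Klk1b27, and 8 did not. Klk1b27 passed it only through its 44 and 17 counts in the deletion-labelled libraries, as the controls held 0, 0 and 1. The edgeR quasi-likelihood fit over all 18590 genes that passed gave log2 fold changes (deletion-labelled libraries over control) of 1.74 for Klk1b24 and 5.54 for Klk1b27, beside a median of -0.01 over all genes. The value of Klk1b27 rests on 1 control count, and that of Klk1b24 was 0.32 without Ghr deletion replicate 1. At an adjusted p under 0.05, 0 of the 10 were called, where 0% of all tested genes were called higher and 0% lower. The groups did not overlap, with the deletion-labelled libraries higher, for 1 of the 2 tested genes (Klk1b27), where the share over all tested genes was 10.8%, and 0 were lower, against 12.5%. A count in any library was present for 8 of the 10 genes. Of these 8, 2 (Klk1b27 and Klk1b16) did not overlap on the higher side, against 9.79% of all genes with a count, and 0 on the lower side, against 9.38%. For Klk1b16 this rests on 1 count each in control replicate 3 and Ghr deletion replicate 2, at 0.0221 and 0.0252 CPM, a difference in library size alone. As the choice of genes used this contrast, nothing is read from these shares.

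A sum over the family is the same however reads were divided among its members. The 10 genes summed to 0.864, 0.668 and 1.37 CPM in the controls, and to 11.6 and 1.62 CPM under the deletion label. With the 24 Klk1 and Klk1b genes and pseudogenes of the annotation the sums were 0.864, 0.668, 1.39, 11.7 and 1.69 CPM, so the genes outside the 10 added little. The log2 ratio of the group means of the 10-gene sum was 2.78 with all libraries and 0.74 without Ghr deletion replicate 1, beside a pooled SD of 1.24 on the log2 scale within groups.

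The make-up of the sum differed between the 2 deletion-labelled libraries. Klk1b24 gave 71.4%, 76.9% and 79.0% of the family's counts in the controls, 35.2% in Ghr deletion replicate 1 (95% Clopper-Pearson interval 31.0 to 39.5) and 57.8% in Ghr deletion replicate 2 (44.8 to 70.1). Klk1 gave 43.2% (38.8 to 47.6) in Ghr deletion replicate 1 and 0 of 64 counts in Ghr deletion replicate 2, where the interval reaches 5.60%. Klk1b27 gave 8.59% (6.31 to 11.4) and 26.6% (16.3 to 39.1) of the counts in these libraries. These shares are of counts and are not corrected for length. On the TPM scale, which is, the order in Ghr deletion replicate 1 was Klk1 at 7.83, Klk1b24 at 7.03, Klk1b21 at 2.29 and Klk1b27 at 1.69 TPM, and in Ghr deletion replicate 2 it was Klk1b24 at 1.18, Klk1b27 at 0.53, Klk1b21 at 0.13 and Klk1 at 0.

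**Figure D3:**
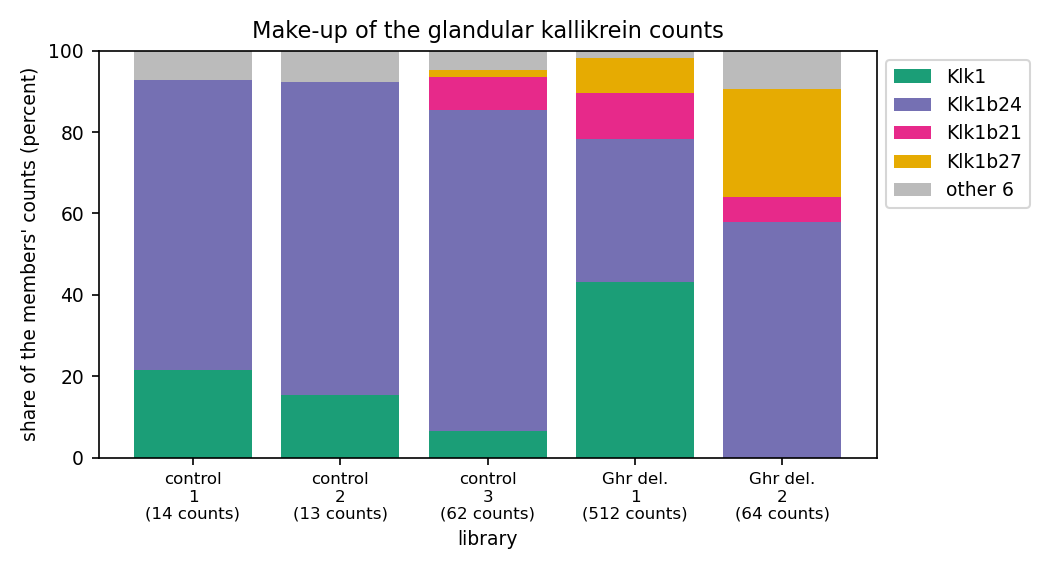
Share of the 10 genes' expected counts (y axis, percent) held by Klk1, Klk1b24, Klk1b21, Klk1b27 and the other 6 genes in each library (x axis, with the family's count below each bar). Klk1b24 is the largest part of every library except Ghr deletion replicate 1, where Klk1 is at 43.2%, and the control bars for replicates 1 and 2 rest on 14 and 13 counts.

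Along the cluster, Klk1b27 and Klk1b21 were consecutive among the 14 genes, and other genes lay between Klk1b21, Klk1b24 and Klk1. Klk1b27, Klk1b21, Klk1b24 and Klk1 start 101.6, 151.7, 237.6 and 274.7 kb from the start of Klk1b8, the first gene. Klk1b22, next to Klk1b21, had no counts, and Klk1b16, between Klk1b21 and Klk1b24, reached 5. The 4 Klk1b genes outside the 10 were as scarce: Klk1b9 was at 0 in all libraries, and Klk1b1, Klk1b3 and Klk1b4, of which Klk1b3 and Klk1b4 encode subunits of the nerve growth factor complex, had counts only in deletion-labelled libraries and no more than 2 in either.

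**Figure D4:**
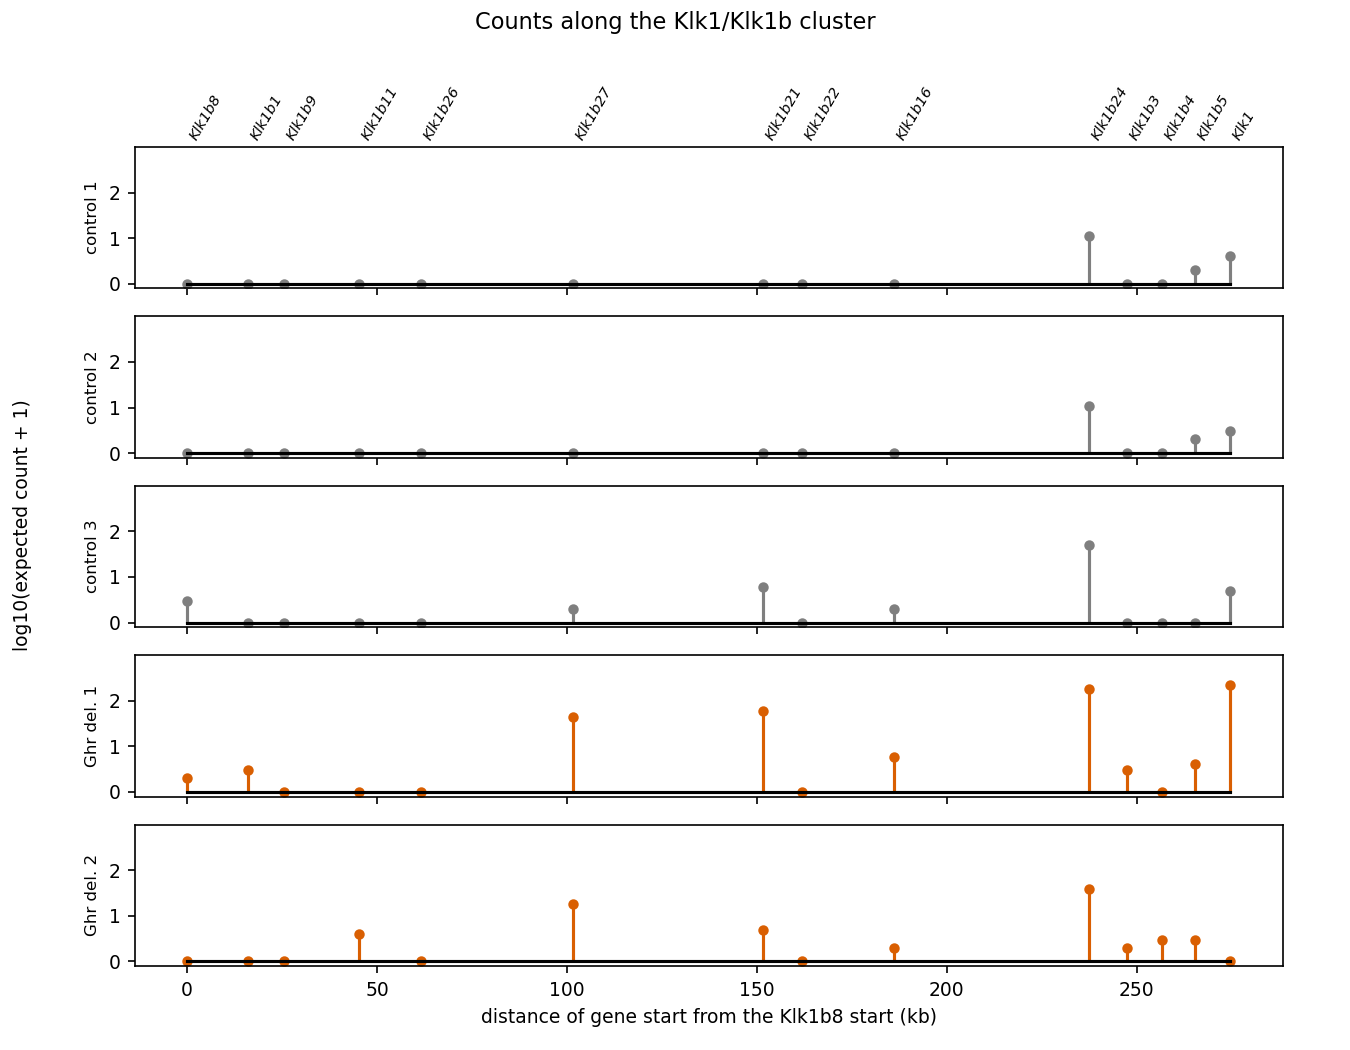
Expected counts, as log10(count + 1), of the 14 Klk1 and Klk1b genes (y axes, 1 panel per library) by distance of the gene start from the start of Klk1b8 (x axis, kb). The tall lines in Ghr deletion replicate 1 are Klk1b27, Klk1b21, Klk1b24 and Klk1, at 44, 58, 180 and 220.97 counts; Klk1 is at 0 in the panel of Ghr deletion replicate 2.

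The patterns of the 4 counted genes over the 5 libraries were compared by the Euclidean distance between centered log2 CPM values. Klk1b24 and Klk1b21 were the nearest (1.46), followed by Klk1b21 and Klk1b27 (1.95). Klk1 was farther from each of the 3, at 2.99 from Klk1b21, 3.25 from Klk1b24 and 4.30 from Klk1b27. These distances rest on 5 libraries and on few counts.

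Among 12083 other genes, the 5 nearest to Klk1b27 were Eif3j2 (distance 0.75), Abcg8 (0.95), Car3 (1.45), Ltf (1.58) and Dio2 (1.60). Eif3j2 has a near-identical copy elsewhere in the genome, so its counts are uncertain. Abcg8, a subunit of a sterol transporter, had 0.185, 0.257 and 0.728 CPM in controls against 6.92 and 2.35 CPM under the deletion label. Ltf, the secreted iron-binding protein lactoferrin, had 10.4, 9.76, 21.2, 134 and 28.6 CPM in the same order.

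The 5 nearest to Klk1 were Ugt1a6b (1.94), Retnla (2.34), Ccl11 (2.57), Pgr (2.76) and Col6a4 (2.80). Ugt1a6b shares exons with other Ugt1a genes and is uncertain. Pgr, the progesterone receptor, had 2.04, 2.41 and 5.23 CPM in controls against 44.1 and 4.64 CPM, and Ccl11, a chemokine, had 2.41, 1.95, 1.63, 12.1 and 1.64 CPM. All 5 were highest in Ghr deletion replicate 1. As these genes were picked for their likeness, the pattern itself is a description.

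Genes that act with the kallikreins were then read from the same fit, in which 0 of all tested genes were called and 792 had an unadjusted p under 0.05, while DESeq2 called 20 higher and 61 lower. Both kininogens, the substrates from which Klk1 releases kinins, were too scarce to test: Kng1 had 3, 9 and 7 counts in controls against 2 and 0, and Kng2 had at most 3 in any library. Of the 13 genes of the kinin pathway 8 were tested, 0 were called in either direction, and their median log2 fold change was -0.02. Bdkrb2, the constitutive kinin receptor, had 0.926, 2.31 and 3.51 CPM in controls against 4.99 and 6.06 CPM, without overlap (log2 fold change 1.28, SE 0.55); on each side, 1 of the 8 did not overlap, beside 10.8% of all tested genes higher and 12.5% lower. Cpm, a carboxypeptidase that trims kinins, did not overlap on the lower side, with 26.3, 24.4 and 17.7 CPM against 12.1 and 17.0 CPM (log2 fold change -0.64, SE 0.27); by edgeR the adjusted p was 0.874 for both. Mme, or neprilysin, and Xpnpep1, an aminopeptidase, both of which break down kinins, overlapped between the groups, with log2 fold changes of -0.49 (SE 0.38) and -0.18 (SE 0.20).

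Of the 10 genes for precursors that glandular kallikreins process or bind and for their receptors, all were tested and 0 were called, with a median log2 fold change of 0.01. F2rl1, a receptor switched on by proteolytic cleavage, had 22.4, 8.89 and 19.0 CPM in controls against 9.73 and 6.36 CPM. Ren1, renin, was highest in Ghr deletion replicate 2, at 2.07 CPM against 0.0908 to 0.679 CPM elsewhere. Agt, the substrate of renin, was highest in Ghr deletion replicate 1, at 1.77 CPM against 0.101 to 0.494 CPM elsewhere. The groups of each of these 3 genes overlapped.

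Of 6 serine protease inhibitor genes 3 were tested and 0 were called. Spink1, a secreted trypsin inhibitor of the male accessory glands, had 2940, 892 and 1.43 CPM in controls against 0 and 0.530 CPM. Serpina3k had 0.802, 4.32 and 1.68 CPM against 0.0681 and 0 CPM. Both had higher values in each control than in either deletion-labelled library, as 12.5% of all tested genes did, with an adjusted p of 0.874 by edgeR, and DESeq2 called both, beside 0.328% of all tested genes on the lower side. The median log2 fold change of the 3 was -5.86. Serpina3c, the third, had 0.617, 0.205, 0.287, 1.23 and 0.252 CPM. Its groups overlapped, it was highest in Ghr deletion replicate 1, and its log2 fold change was 1.03 (SE 0.84).

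Of 11 genes of the androgen response list, all were tested and 0 were called, with a median log2 fold change of 0.07. The groups did not overlap for 2 of the 11 on the lower side, Homer2 (log2 fold change -0.85, SE 0.25) and Zbtb16 (-0.97, SE 0.43), beside 12.5% of all tested genes, and for 2 on the higher side, among them Acsl3 (0.40, SE 0.20), beside 10.8%. Steap4, with 19.1, 10.3, 11.1, 31.0 and 15.7 CPM, overlapped and was highest in Ghr deletion replicate 1. Among the kallikrein-related peptidases Klk4 to Klk15, whose genes lie beyond the Klk1b cluster, 1 of 12 was tested, Klk8, at 0.198 to 0.454 CPM over the 5 libraries (log2 fold change 0.36, SE 0.59; edgeR gave an adjusted p of 0.912), and the 12 summed to 0.529 to 0.719 CPM.

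Markers of other tissues that make glandular kallikreins were read beside the family's sum of 11.6 CPM in Ghr deletion replicate 1 and 0.668 to 1.62 CPM elsewhere. The 9 submandibular gland genes summed to 10.9, 7.40 and 1.46 CPM in controls against 2.47 and 3.18 CPM; 4 of them, the salivary proteins Smr2, Smr3a, Dcpp1 and Bpifa2, were at 0 in all libraries, and most of the sum was Amy1 and Muc19. The 8 Leydig cell genes summed to 5.93, 7.14, 8.58, 7.69 and 8.63 CPM, mostly Star, and 3 of them, Hsd3b1, Hsd3b6 and Hsd17b3, were at 0 in all libraries. Insl3, the hormone that defines Leydig cells, was at 0, 0, 0.0882, 0.136 and 0.151 CPM, and Cyp17a1, an enzyme of androgen synthesis, at 0.0252 to 0.462 CPM. The 6 genes of pancreatic acinar cells summed to 0.822 to 1.72 CPM, with 4 at 0 in all libraries. Nearly all of this sum was 1 gene, Cela1, at 0.822 to 1.70 CPM.

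The submandibular and Leydig sums were not highest in Ghr deletion replicate 1, and the acinar sum was 1.72 CPM there and 1.69 CPM in Ghr deletion replicate 2. The distal luminal and seminal vesicle sums were lowest in Ghr deletion replicate 1, at 1.66 CPM for the 8 distal luminal genes and 105000 CPM for the 8 seminal vesicle genes. Genes of all luminal epithelia summed to 726 to 879 CPM in controls against 972 and 746 CPM, genes of smooth muscle to 2140 to 7150 against 5950 and 6320 CPM, and genes of proximal luminal cells to 162, 163 and 59.2 against 73.7 and 49.2 CPM. Whether these differences in tissue make-up have a part in the kallikrein values was not tested.

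**Figure D5:**
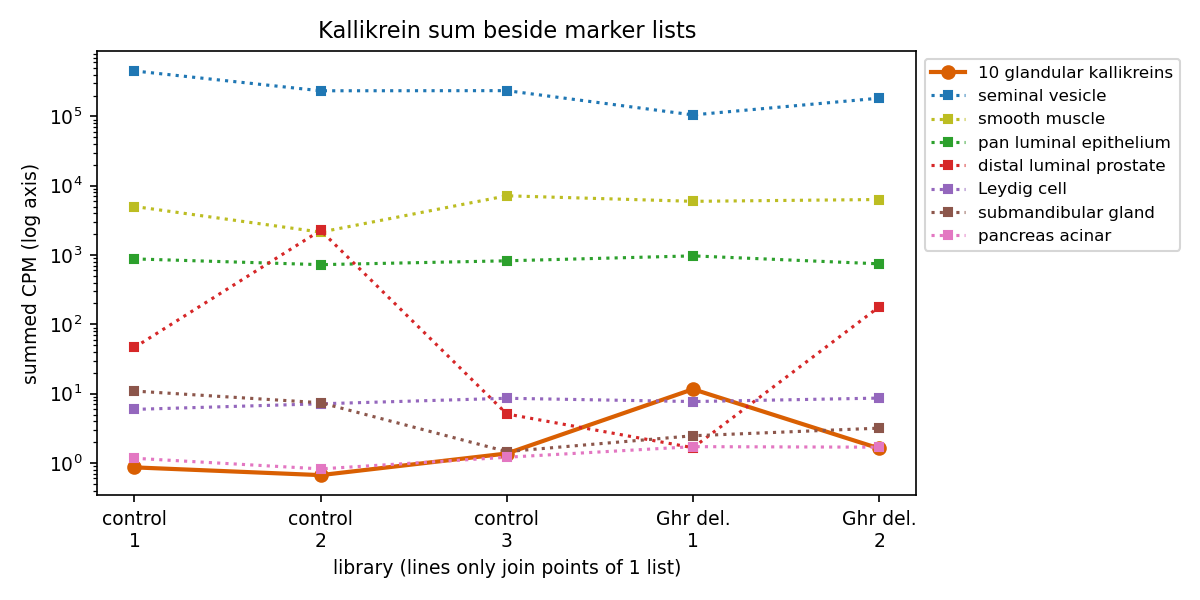
Summed CPM of the 10 glandular kallikreins and of 7 marker lists (y axis, log scale) in each library (x axis); lines only join the points of 1 list. The kallikrein sum is 11.6 CPM in Ghr deletion replicate 1 and 0.668 to 1.62 CPM elsewhere, and the distal luminal list runs from 1.66 CPM in Ghr deletion replicate 1 to 2270 CPM in control replicate 2.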

How the data were processed

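Total RNA of 5 DLP samples was extracted with a NucleoSpin kit, and libraries followed the TruSeq Stranded Total RNA guide, per the labels' protocols. RSEM 1.3.0, STAR 2.5.3a, bcl2fastq 2.20.422 and the GRCm38 build are named in the submitters' processing notes; for annotation release, read length and strand setting, the status is: not given in the sources used here. Per the file headers, the authors deposited expected counts, in which RSEM divides reads that fit several genes, TPM, which corrects for length, and gene lengths. Symbols matched 99.5% of identifiers and GENCODE M21 coordinates 99.6%.

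The genes and the lists were chosen with earlier results of these data known. Groups and replicate numbers came from the titles. Expected counts were rounded, filtered with filterByExpr by group, scaled by TMM and fitted in edgeR 4.0.16 (R 4.3.3), whose quasi-likelihood test had no term but group; Benjamini-Hochberg adjustment ran over all genes tested, with a threshold of 0.05. The samples are biological replicates per the labels. This step was tested on simulated counts, where unchanged genes made up a larger part of its calls than the threshold allows, so edgeR calls under the alternatives may be less certain than their adjusted p.

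Text values are CPM on the TMM-scaled library size. An SE is the edgeR log2 fold change, without its sign, divided by the square root of the F statistic of its test. It therefore restates that test, and none is given for the 10 kallikreins. Intervals are exact Poisson for counts, exact conditional binomial for ratios and Clopper-Pearson for shares, at 95%, and the floor is 3 counts per library; all cover counting error alone. Reads were not marked as single molecules. Named genes are all 10 kallikreins, up to 4 of each pathway list with the smallest p (1 such gene is not reported here), and the 5 nearest patterns to Klk1b27 and to Klk1 among genes of average log2 CPM of at least 1 (prior count 2), predicted genes and pseudogenes left out; Ghr, Kng1, Kng2 and the genes of the cluster outside the 10 were added after their values were seen. Coding sequences came from GENCODE M21 transcripts and promoters from RefSeq, read with Biopython 1.88; proteins were not used here. Alternatives were other scalings and filters, DESeq2 1.42.0, limma 3.58.1 (voom, and trend on TPM), the replicate number as a block, and leaving out 1 library at a time.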

Additional observations from a re-analysis of the deposited data

How the results depend on the processing

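The count of kallikreins called, 0 of 10, held under every other scaling and filter, DESeq2, limma-voom and each library left out, and changed under 3 settings; Klk1b27 was not tested with the filter at CPM 1. Limma-trend on log2(TPM + 1) called 2 (Klk1b27 and Klk1b24), with 12.0% of all genes called higher and a median shift of 0.87, and on log2(TPM + 0.1) it called 2, with 3.69% called higher and a shift of 1.33. With the replicate number as a block, 1 was called (Klk1b27), with 2.97% called higher. Over all genes, called higher and lower were 0 and 0 in the main fit, 2 and 0 with no filter, 20 and 61 with DESeq2, 2234 and 60 on log2(TPM + 1), 686 and 47 on log2(TPM + 0.1), and 552 and 574 with the replicate block; leaving out a library gave 0 to 15 higher and 0 to 33 lower, the upper ends without control replicate 3. Same-numbered libraries deviated together at r = 0.28 and 0.30. With only 2 deletion-labelled libraries these values are mirrored: control replicates 1 and 2 had r = -0.28 and -0.30 with the other one. A positive r with 1 of the 2 therefore says little. Only 2 numbers are shared and the labels do not say that a number marks a litter or day, so the numbers are not taken to pair mice.

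On the 2 TPM scales in that order and with the replicate block, calls were 2, 2 and 2 for the kinin pathway, 3, 1 and 1 for growth factor and renin substrates, 3, 2 and 2 for protease inhibitors (2 with DESeq2), and 1, 0 and 1 for androgen response; the cause was not tested. The log2 ratio of the summed kallikreins, 2.78, was 4.08 as a sum of TPM and ran from 0.74 (without Ghr deletion replicate 1) to 3.59 over the libraries left out. The lowest share of unique windows was 67.9% at 50 bases and 93.9% at 100. The log2 fold change of Klk1b27 ran from 1.01 on log2(TPM + 1), beside a median of 0.87 over all genes there, to 7.50 with the block. It was positive in each setting that tested the gene, but the gene was chosen for this contrast, so nothing is read from the sign. Library size alone moved the median of all genes to 0.58. Depth limits all folds here: of the 4 counted genes, Klk1, Klk1b21 and Klk1b27 had 9, 5 and 1 counts over the 3 controls together, and the other 6 genes had at most 2.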
